A study of Mus musculus with 8 samples.

Results

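Genes that mark mast cells and basophils were followed through RNA-seq of mouse hematopoietic progenitors with and without *Pcgf1*, which encodes a subunit of the PRC1.1 Polycomb complex. The set was taken from knowledge of these cells, with earlier results of these data already known, and holds 8 of the 23284 gene symbols measured. They are *Fcer1a*, *Ms4a2* and *Fcer1g*, the alpha, beta and gamma chains of the high-affinity IgE receptor, the proteases *Cpa3*, *Mcpt8* and *Prss34*, the histamine-producing enzyme *Hdc* and the transcription factor *Mitf*. The series held 4 libraries of IdHPCs and 4 of LMPPs (lymphoid-primed multipotent progenitors), each with 2 control and 2 *Pcgf1*-KO libraries by label. IdHPCs are bone marrow progenitors kept undifferentiated by transduced Id3 and grown on TSt-4 stromal feeders with IL-7, SCF and Flt3 ligand.

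All 8 libraries came from the strain B6CBAF1/J, carried floxed *Pcgf1* alleles (Pcgf1 fl/fl) and had passage 15 to 18 on their labels. In the *Pcgf1*-KO groups a tamoxifen-activated Cre (ERT2-Cre) was switched on with 4-OHT for 4 days to remove exons 2 to 7. It can act in any cell that carries it, so that it is not limited to 1 blood lineage. The LMPP controls also received 4-OHT, and for the control IdHPCs of the RNA-seq it is not stated, while IdHPC controls of another experiment received ethanol. The LMPPs were isolated from bone marrow and kept in culture with 4-OHT for 4 days, so that they are not fresh cells. For a PCR measurement of *Pcgf1* in LMPPs, the paper names TSt-4 feeders with SCF, IL-7 and Flt3 ligand. The paper describes its RNA-seq as run on 2 biological replicates that were independent. The labels do not say whether the 2 libraries of a group came from separate cultures or mice, and p-values measure only the spread between them.

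Mast cells and basophils are granulocytes that bind IgE through a receptor built from alpha, beta and gamma chains. Cross-linking of that receptor leads to release of histamine, heparin-bound proteases and lipid mediators. Both cell types descend from progenitors that express GATA2, and they differ in their granule proteases. Tryptases and chymases dominate in mast cells, *Mcpt8* and *Prss34* mark mouse basophils, and *Cpa3* is transcribed in both and in early progenitors. *Fcer1g* is also the signalling chain of Fc gamma receptors and other receptors of many myeloid cells and is thus not restricted to these lineages.

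On the mm9 annotation, *Cpa3* lies at chr3:20115516-20142080, *Hdc* at chr2:126419403-126445035, *Mcpt8* at chr14:56701003-56704053 and *Fcer1g* at chr1:173159703-173164496, all on the minus strand. The other genes are *Ms4a2* (chr19:11690013-11698209, minus strand), *Fcer1a* (chr1:175151402-175157360, minus strand), *Prss34* (chr17:25435339-25437106, plus strand) and *Mitf* (chr6:97757052-97971352, plus strand). The deposited tables list exons, and the exons of a symbol were summed.

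The promoters of the 4 members with the most reads in LMPPs are shown because 2 of them, *Hdc* and *Fcer1g*, differed between LMPP libraries, whereas *Cpa3* and *Mcpt8* did not pass the test. Each is the RefSeq sequence of the 250 bases before the start site (build GRCm38.p6, gene strand, 5′ to 3′), and capitals mark matches to the GATA motif. They cover chr2:126618679-126618928 for *Hdc*, chr1:171234350-171234599 for *Fcer1g*, chr3:20242182-20242431 for *Cpa3* and chr14:56085198-56085447 for *Mcpt8*.
Hdc: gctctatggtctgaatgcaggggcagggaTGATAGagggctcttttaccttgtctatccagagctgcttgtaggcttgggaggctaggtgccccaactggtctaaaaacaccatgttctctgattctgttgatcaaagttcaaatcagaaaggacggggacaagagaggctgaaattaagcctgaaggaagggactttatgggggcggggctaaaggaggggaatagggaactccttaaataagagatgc
Fcer1g: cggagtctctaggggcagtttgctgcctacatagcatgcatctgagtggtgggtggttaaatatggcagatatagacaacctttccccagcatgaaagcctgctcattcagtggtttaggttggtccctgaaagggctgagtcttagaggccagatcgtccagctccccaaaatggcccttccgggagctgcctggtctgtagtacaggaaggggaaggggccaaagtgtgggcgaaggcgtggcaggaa
Cpa3: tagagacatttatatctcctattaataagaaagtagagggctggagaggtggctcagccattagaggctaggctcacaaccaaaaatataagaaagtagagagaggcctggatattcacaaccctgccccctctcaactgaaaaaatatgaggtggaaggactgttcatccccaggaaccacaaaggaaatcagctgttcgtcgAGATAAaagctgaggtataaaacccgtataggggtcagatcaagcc
Mcpt8: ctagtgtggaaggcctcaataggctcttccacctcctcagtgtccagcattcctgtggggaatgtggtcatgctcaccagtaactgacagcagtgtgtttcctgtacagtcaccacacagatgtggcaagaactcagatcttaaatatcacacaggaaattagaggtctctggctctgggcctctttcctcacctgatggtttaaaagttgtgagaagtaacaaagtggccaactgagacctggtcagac

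The motif was searched on both strands in 4 forms, which were AGATAA, its variant AGATAG, the related word TGATAA and its variant TGATAG, and all 8 members had an entry in the promoter table. One match began at position -46 from the start site in *Cpa3* and another at position -221 in *Hdc*. *Fcer1g* and *Mcpt8* had none in this window. Among the members not printed, *Ms4a2* had 3 matches, *Fcer1a* 1 and *Prss34* 1, and the 3 start sites of *Mitf* had 0, 1 and 2. By comparison, 26.5% of the 32851 promoters of this length held at least 1 match, so that a match is common. The core GAGGAA of the myeloid factor PU.1 occurred in the *Mcpt8* and *Fcer1a* windows and in 23.3% of all promoters.

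The deposited values are CPM (read counts scaled to a common library total), and 1 read corresponded to between 0.0287 and 0.0757 CPM. Each library held between 9618849 and 25302206 reads on distinct exons, with fewer in LMPPs than in IdHPCs. The targeted exons were checked first. In IdHPCs, 193 and 173 reads fell on *Pcgf1* exons 2 to 7 in the controls and 15 in each *Pcgf1*-KO library. In LMPPs the count was 84 under the label control 1 and 76 under the label *Pcgf1*-KO 1, but 0 under the labels control 2 and *Pcgf1*-KO 2. The reads thus go against 2 of the 4 LMPP labels. LMPP results are therefore given both by label and as the 2 libraries without reads on these exons against the 2 libraries with them. This second split is identical to replicate number 2 against 1, and both cannot be told apart.

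*Cpa3*, *Mcpt8*, *Hdc* and *Mitf* had higher levels in LMPPs than in IdHPCs, and *Fcer1g* had overlapping levels in both. With neighboring exons of equal values counted once, *Ms4a2*, *Fcer1a* and *Prss34* stayed below 1 CPM in all 8 libraries. In IdHPCs, *Cpa3*, *Ms4a2*, *Fcer1a* and *Prss34* had 0 reads in each of the 4 libraries, where 3 reads correspond to at most 0.141 CPM. *Mcpt8* had 3 reads and *Hdc* 9 reads over all 4 IdHPC libraries together. *Mitf*, which drives mast cell and pigment cell programs, had 31 reads, 17 of them in *Pcgf1*-KO 1. In LMPPs *Mcpt8* ranged from 21.2 to 27.1 CPM, *Cpa3* from 13.6 to 20.3 CPM, *Hdc* from 5.53 to 13.9 CPM and *Mitf* from 1.67 to 3.36 CPM. The lowest *Cpa3* level in LMPPs was at least 96.2-fold higher than the largest floor of 3 reads per library in IdHPCs. The IdHPC and LMPP tables were normalized separately, and levels across them are a description without a test.

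**Figure D1:**
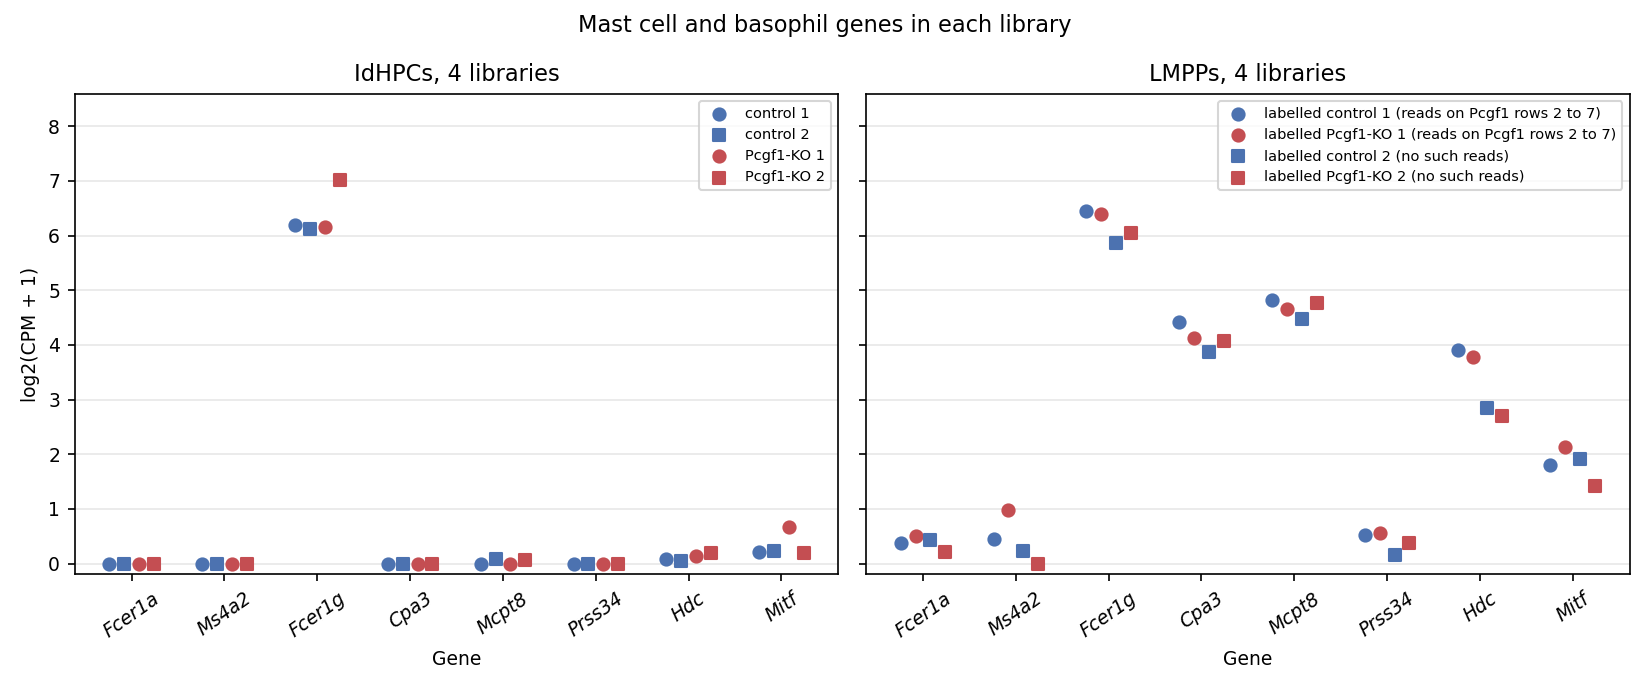
The points show log2(CPM + 1) of each gene in the 4 IdHPC libraries (left) and the 4 LMPP libraries (right), with color for the labelled genotype and shape for the replicate number. *Fcer1g* stands near 6 to 7 in both cell types, *Cpa3*, *Mcpt8* and *Hdc* lie above 2 in LMPPs and below 0.3 in IdHPCs, and the LMPP libraries without reads on *Pcgf1* exons 2 to 7 (squares) are lowest for *Hdc*.

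Per kilobase of exon, which allows genes to be compared, the median LMPP level was 92.5 CPM per kb for *Fcer1g*, 29.4 for *Mcpt8*, 11.1 for *Cpa3* and 1.48 for *Hdc*. Below these came *Mitf* with 0.423 CPM per kb, *Fcer1a* with 0.312, *Prss34* with 0.306 and *Ms4a2* with 0.0982. The ranges over the 4 libraries did not overlap among the first 4 genes, nor between *Hdc* and *Mitf*, while those of *Mitf*, *Fcer1a*, *Prss34* and *Ms4a2* overlapped. Hence the gamma chain of the IgE receptor was abundant while its alpha and beta chains were close to the detection limit. *Fcer1a* had 4 reads in labelled control 1, 6 in labelled control 2, 6 in labelled *Pcgf1*-KO 1 and 2 in labelled *Pcgf1*-KO 2. *Ms4a2* had 5, 3, 14 and 0 reads in the same order, and *Prss34*, a basophil tryptase, had 6, 2, 7 and 4. Neighboring exons with equal values were counted once, which can merge separate exons at such low counts, and over all listed exons *Ms4a2* had 7, 3, 18 and 0 reads. For *Ms4a2* the annotation holds 7 exons and 7 were listed, of which 5 were counted. With all listed exons summed, 6 members instead of 5 reached 1 CPM in at least 1 LMPP library.

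In bulk libraries, fewer cells of a type and less RNA per cell cannot be told apart, and the defining genes of mature cells were looked up beside the members. Of 10 mast cell markers, only *Kit*, *Slc18a2* and *Cma1* reached the filter of 1 CPM in LMPPs, and the tryptases *Tpsb2* and *Tpsab1*, which resemble each other closely, had 6 reads each over the 4 libraries. *Mcpt1*, *Mcpt4* and *Mrgprb1* were at 0 reads in all 4. *Cd200r3*, a basophil receptor, had between 7 and 13 reads per LMPP library. The 6 listed basophil markers, *Cd200r3* included, summed to between 279 and 315 CPM in LMPPs and between 1320 and 1817 CPM in IdHPCs. Of these sums, *Ifitm1* alone gave 273 to 311 CPM in LMPPs and 1315 to 1815 CPM in IdHPCs. Markers of eosinophils summed to between 0.403 and 1.62 CPM. Progenitor markers (*Flt3*, *Cd34*, *Kit*, *Ly6a* and *Il7r*) summed to between 1401 and 1521 CPM in LMPPs and between 667 and 906 CPM in IdHPCs.

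The first comparison asked what loss of *Pcgf1* did to these genes in IdHPCs. *Fcer1g*, the only member that passed the filter of 1 CPM in at least 1 of the 4 libraries, measured 72.1 CPM in control 1, 68.9 CPM in control 2, 70.4 CPM in *Pcgf1*-KO 1 and 129 CPM in *Pcgf1*-KO 2. Thus *Pcgf1*-KO 2 alone was high, and *Pcgf1*-KO 1 lay between the 2 controls. The log2 fold change was 0.43 with a standard error of 0.28 (95% interval -0.19 to 1.06, n = 2 against 2), and the adjusted p was 0.511 by limma. None of the 8 members was called, beside 0.269% of the 12273 genes tested called higher and 0.261% called lower. Groups without overlap, which *Fcer1g* did not show, occurred in 25.6% of genes as higher and 21.3% as lower.

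The *Fcer1g* value depended on 1 library. Without *Pcgf1*-KO 1 the log2 fold change was 0.87 and was called (adjusted p = 0.0428 by limma), and without *Pcgf1*-KO 2 it was -0.0022. *Pcgf1*-KO 2 also stood apart in coverage along transcripts. The exon at the 3′ end of a gene held 21.1% of its reads, against 17.0% to 18.2% in the other 3 IdHPC libraries. Genes with under 1000 exonic bases were higher in this library than in the mean of the other 3, with a median log2 difference of 0.46 over 483 genes, of which 83.6% were higher. For longer genes the median was -0.03. *Fcer1g* has 800 exonic bases and differed by 0.87, and the part of gene length in this value was not tested. Its first listed exon held 39.0% of its reads in *Pcgf1*-KO 2 and 39.5% to 41.3% in the others.

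The remaining IdHPC values were too low for a test. For *Hdc*, 2 reads were found in control 1, 1 read in control 2 and 3 reads in each *Pcgf1*-KO library. For *Mitf* the controls gave 5 and 6 reads, whereas *Pcgf1*-KO 1 gave 17 and *Pcgf1*-KO 2 gave 3, so that the groups overlapped. For *Mcpt8*, control 2 gave 2 reads, *Pcgf1*-KO 2 gave 1 and the other two gave 0. A change in these genes was not detectable at this depth.

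The related gene lists gave few calls in IdHPCs. None of 12 tested mast cell and basophil effector genes, 13 transcription factors, 23 genes of IgE receptor signalling, 7 partners or relatives of *Fcer1g* and 2 relatives of *Mitf* was called. Their median log2 fold changes were 0.29, -0.08, -0.16, -0.15 and -0.07, beside 0.01 over all genes tested. Of 14 tested surface genes 1 was called, beside 0.269% of all genes called higher and 0.261% lower. This was *Cd63*, a tetraspanin of granule and lysosome membranes that reaches the surface of activated basophils, which measured 102 CPM in control 1, 80.5 CPM in control 2, 270 CPM in *Pcgf1*-KO 1 and 258 CPM in *Pcgf1*-KO 2 (log2 fold change 1.53, SE 0.22, adjusted p = 0.020 by limma). The call was lost without control 2 (adjusted p = 0.200) and with no filter on low values (adjusted p = 0.171). Stromal markers moved with it, since all 8 tested were higher in *Pcgf1*-KO (2 called, *Col1a2* and *Sparc*) and the 10 listed summed to between 5520 and 6780 CPM there against 2841 to 3234 CPM in controls. Both calls were also lost without control 2 (adjusted p = 0.576 for *Col1a2* and 0.303 for *Sparc* by limma), without control 1 and with no filter on low values. The part of stromal cells in the *Cd63* value was not tested.

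In LMPPs, the comparison by label called no member. Under the control label *Hdc* measured 13.9 CPM (replicate 1) and 6.21 CPM (replicate 2), and under the *Pcgf1*-KO label 12.7 CPM (replicate 1) and 5.53 CPM (replicate 2). Each label thus held 1 high and 1 low library. *Fcer1g* had 86.3 and 57.1 CPM under the control label and 83.0 and 65.0 CPM under the *Pcgf1*-KO label, with the same order of replicates. *Cpa3* had 20.3 and 13.6 CPM under the control label and 16.4 and 15.9 CPM under the *Pcgf1*-KO label. In *Mcpt8* the values were 27.1 and 21.2 CPM for control and 24.2 and 26.2 CPM for *Pcgf1*-KO, and in *Mitf* 2.51 and 2.76 CPM for control and 3.36 and 1.67 CPM for *Pcgf1*-KO. The labelled groups overlapped for all 8 members, and among all genes tested 5.92% were higher and 6.3% lower without overlap.

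The log2 fold changes by label were 0.07 for *Mcpt8* (95% interval -0.37 to 0.51), 0.06 for *Fcer1g* (-0.49 to 0.62), -0.04 for *Cpa3* (-0.60 to 0.52), -0.09 for *Mitf* (-0.91 to 0.73) and -0.13 for *Hdc* (-1.30 to 1.03). All 5 adjusted p-values were 1.0 by limma, and the other 3 members did not pass the filter. None of the 12153 genes tested was called in either direction (0%), and 2 had an unadjusted p under 0.05, both higher. The edgeR exactTest, the edgeR quasi-likelihood test and DESeq2 on the recovered reads also called 0 genes. The intervals show that a change of *Hdc* by a log2 of 1 in either direction would lie within the error of this comparison.

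Between the LMPP libraries without and with reads on *Pcgf1* exons 2 to 7, *Hdc* and *Fcer1g* differed, and both were lower without such reads. *Hdc*, which makes histamine from histidine, had 6.21 and 5.53 CPM without such reads and 13.9 and 12.7 CPM with them. The means were 5.87 ± 0.486 CPM and 13.3 ± 0.875 CPM (SD, n = 2 each), a ratio of 2.27. The groups did not overlap, and each pair lay close together across the labels. The log2 fold change was -1.06 with a standard error of 0.14 (95% interval -1.37 to -0.75), and the adjusted p was 0.000748 by limma.

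*Fcer1g* had 57.1 and 65.0 CPM in the libraries without such reads and 86.3 and 83.0 CPM in those with them, again with no overlap. Its log2 fold change was -0.47 with a standard error of 0.09 (95% interval -0.67 to -0.26), and the adjusted p was 0.00636 by limma. *Cpa3*, with 13.6 and 15.9 CPM against 20.3 and 16.4 CPM, also had groups that did not overlap, but its log2 fold change of -0.29 did not pass the test (SE 0.14, adjusted p = 0.198 by limma, 95% interval -0.61 to 0.02). *Mcpt8* showed the smallest value, -0.12 (SE 0.13, adjusted p = 0.603 by limma), and the *Mcpt8* groups overlapped. Its 95% interval of -0.40 to 0.17 did not reach that of *Hdc*. *Mitf* had a log2 fold change of -0.30 (SE 0.22, adjusted p = 0.400 by limma) with overlapping groups. When single libraries were left out, the log2 fold change ranged from -0.44 (without labelled *Pcgf1*-KO 1) to -0.15 (without labelled control 1) for *Cpa3* and from -0.55 (without labelled control 2) to -0.06 (without labelled *Pcgf1*-KO 2) for *Mitf*.

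Thus 2 of the 5 members tested were called lower and 0 higher, beside 7.08% of the 12153 genes called lower and 10.1% called higher. *Cpa3*, *Fcer1g* and *Hdc* were the 3 of 5 with both libraries lower, beside 29.9% of all genes lower and 26.7% higher by this criterion. *Hdc* and *Fcer1g* were called in each of the alternatives run, those leaving out each library included. The 3 members below the filter also had lower means without such reads, with 3 and 19 reads of *Ms4a2*, 8 and 10 of *Fcer1a* and 6 and 13 of *Prss34* in the libraries without and with them, respectively. These counts are too few for a comparison.

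**Figure D2:**
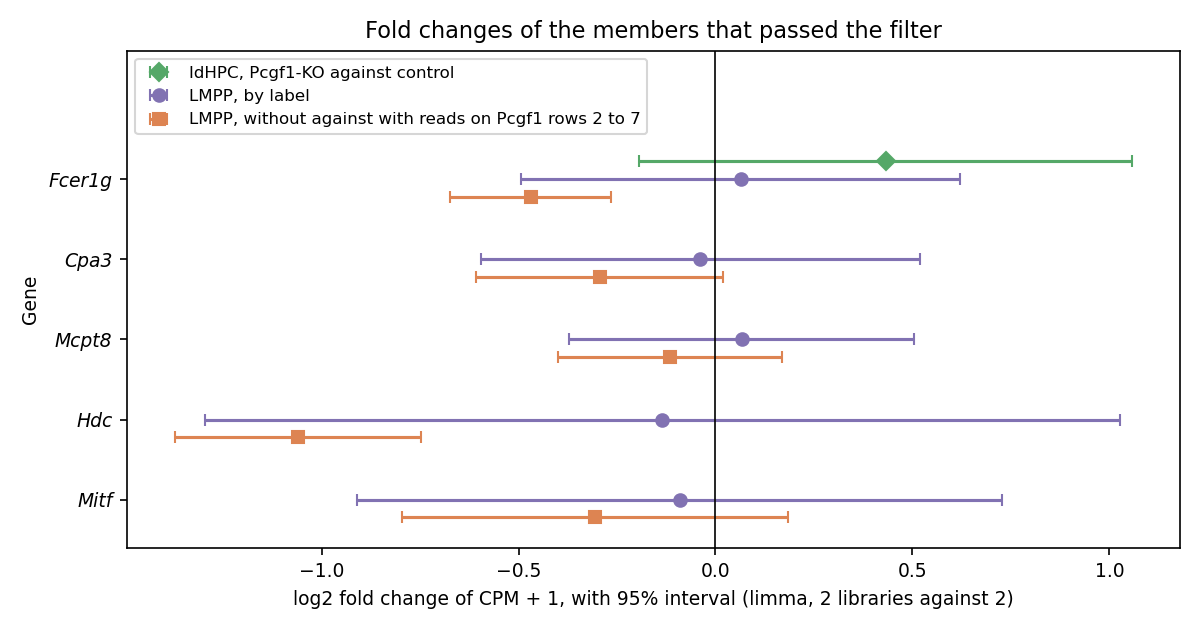
Points are log2 fold changes of CPM + 1 and bars 95% intervals from limma (2 libraries against 2), for the 5 members that passed the filter. The intervals of *Hdc* and *Fcer1g* exclude 0 in the LMPP split by *Pcgf1* exon reads (squares) and include 0 by label (circles), and *Fcer1g* is the only member tested in IdHPCs (diamond).

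The difference of *Hdc* ran along the whole transcript. All 12 of its exons had reads in each LMPP library, and in all 12 both libraries without *Pcgf1* exon reads were below both libraries with them. Its first listed exon, the 3′ end of this minus-strand gene, held between 35.7% and 39.8% of its reads in each library. All 5 exons of *Fcer1g* behaved the same way. In contrast, only 4 of 11 exons of *Cpa3* and 1 of 5 exons of *Mcpt8* were lower in both libraries, and no exon of any member was higher in both. Exons of a gene share their transcripts and are not replicates.

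Ratios within a library do not depend on its scaling. For every 100 reads of *Mcpt8*, the libraries labelled control 1 and *Pcgf1*-KO 1 gave 51.4 and 52.6 reads of *Hdc*, whereas those labelled control 2 and *Pcgf1*-KO 2 had 29.3 and 21.1. *Cpa3* gave 74.7 and 67.9 against 64.1 and 60.7 reads per 100 reads of *Mcpt8*, a smaller gap. The difference between *Hdc* and *Mcpt8* was not tested.

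**Figure D3:**
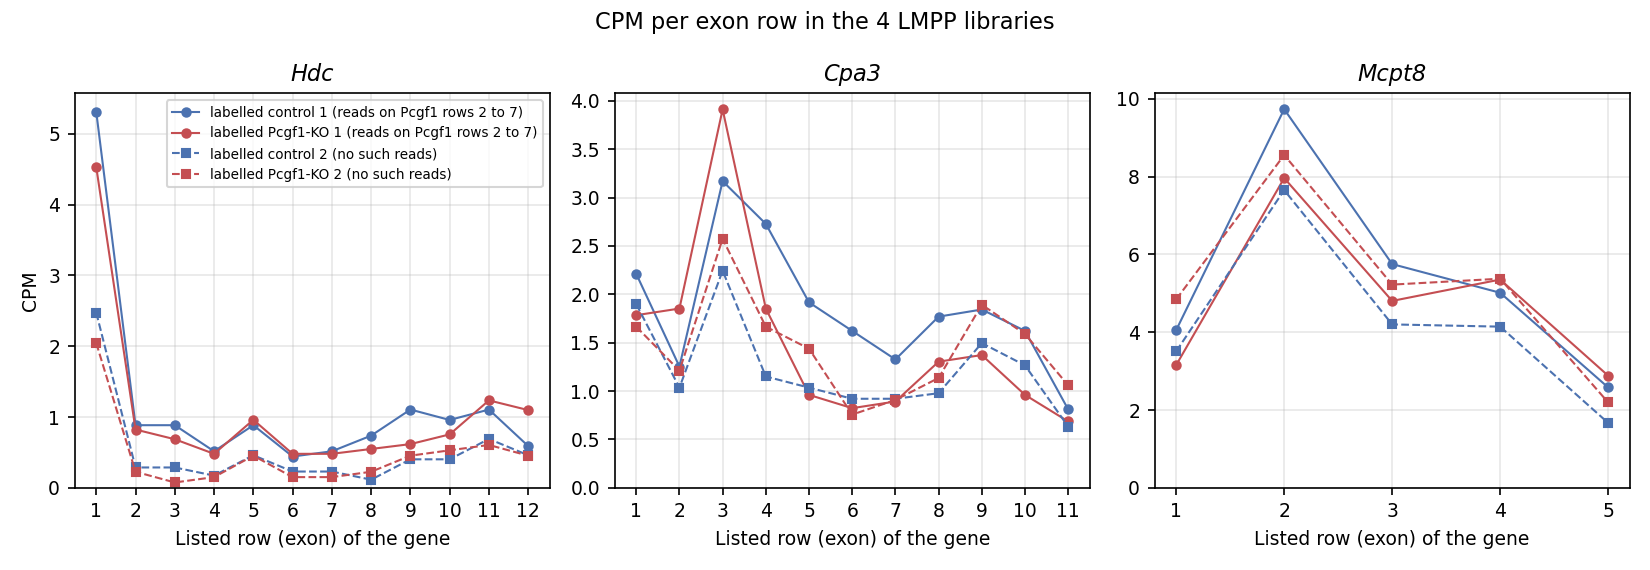
CPM of each listed exon of *Hdc*, *Cpa3* and *Mcpt8* is plotted in the 4 LMPP libraries, each panel with its own axis from 0. For *Hdc* both libraries without reads on *Pcgf1* exons 2 to 7 (dashed) run below both others in all 12 exons, while the lines cross in *Cpa3* and *Mcpt8*.

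Of 16 tested transcription factors of mast cells and basophils, 8 were called higher in the LMPP libraries without *Pcgf1* exon reads and 0 lower, beside 10.1% and 7.08% of all genes. The other 8 were not called, 6 of them with a negative log2 fold change, and the median was 0.22 beside -0.02 over all genes. *Gata2*, required for both lineages, had 86.3 and 82.6 CPM without such reads and 49.5 and 54.3 CPM with them (log2 fold change 0.69, SE 0.09, adjusted p = 0.000601 by limma). *Bhlhe40* had the largest difference, with 29.7 and 30.8 CPM without such reads and 8.63 and 9.27 CPM with them (log2 fold change 1.65). The remaining calls were *Ikzf2* (0.69), *Tal1* (0.62), *Stat5b* (0.47), *Stat5a* (0.46), *Cebpb* (0.39) and *Cebpa* (0.34), of which the STAT5 factors act downstream of IL-3 and KIT signalling. Among the relatives of *Mitf*, *Tfec* was lower (log2 fold change -0.91), and *Tfe3* and *Tfeb* were not called.

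Effector genes were called in both directions, 2 of 19 tested higher and 2 lower, shares near the 10.1% and 7.08% of all genes. *Slc18a2*, the transporter that loads histamine into granules, had 59.8 and 53.5 CPM in the LMPP libraries without *Pcgf1* exon reads and 21.5 and 23.1 CPM with them (log2 fold change 1.31), opposite in direction to *Hdc*. The chymase *Cma1* had 12 and 19 reads without and 0 and 2 reads with them, and all reads of the tryptases *Tpsb2* and *Tpsab1* were in the libraries without. *Cma1* is counted among the 2 higher effectors, but it passed the filter only through 1 library of the group where it was high, and its call is no support. *Alox5*, which starts leukotriene synthesis, and *Serpinb1a*, an inhibitor of granule proteases, were lower (log2 fold changes -0.85 and -0.43). The median of the 19 effectors was -0.10.

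Of 16 tested surface genes, 3 were higher and 6 lower, beside 10.1% and 7.08% of all genes, with a median of -0.16. *Kit*, the receptor for stem cell factor, had 384 and 352 CPM without such reads and 228 and 258 CPM with them (log2 fold change 0.60), and *Cd63* (0.75) and *Itga2b* (0.54) were higher as well. The cytokine receptors *Il18r1* (-1.79), *Il1rl1* (-0.60) and *Il3ra* (-0.36), which receive IL-18, IL-33 and IL-3, respectively, were lower, and so were *Cd33* (-0.85) and *Fcgr2b* (-0.59). The sixth, *Clec4a2*, reached the filter only in the group where it was high (1.11 and 1.17 CPM with such reads, 0.288 and 0.0757 CPM without), and its call is no support. The count of lower surface genes was 2 without the library labelled *Pcgf1*-KO 2 and 3 without that labelled control 1.

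*Fcer1g* was lower together with part of a list of receptors and adaptors that pair with it or only resemble it. *Tyrobp*, an adaptor with an ITAM like that of *Fcer1g*, had 64.8 and 72.6 CPM without *Pcgf1* exon reads and 141 and 125 CPM with them (log2 fold change -0.94). *Trem1* (-0.69) and *Fcgr2b* were also lower and *Clec4e*, a lectin that signals through *Fcer1g*, was higher (0.57), which gave 1 higher and 3 lower of 8 tested, beside 10.1% and 7.08% of all genes. The count of lower genes was 1 without the library labelled *Pcgf1*-KO 2. Of 25 genes of IgE receptor signalling, 2 were higher and 5 lower, beside 10.1% and 7.08% of all genes. The higher genes were the adaptor *Gab2* (0.61) and the phospholipase *Plcg1* (0.77). Lower genes included *Pik3r5* (-0.94), *Pik3r6* (-0.89), *Grap2* (-0.81) and *Rasgrp4* (-0.46), and the median was -0.02. By label, no gene of these lists was called in LMPPs. Of the 32 list genes called in the split by exon reads, 20 were called in all 4 fits that left out 1 library. The other 12 lost the call in at least 1 of these fits and were *Cebpa*, *Cebpb*, *Clec4a2*, *Cma1*, *Fcgr2b*, *Gab2*, *Grap2*, *Il1rl1*, *Il3ra*, *Rasgrp4*, *Serpinb1a* and *Trem1*. Thus *Gata2*, *Bhlhe40*, *Slc18a2*, *Kit* and *Tyrobp* were among those called in each.

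**Figure D4:**
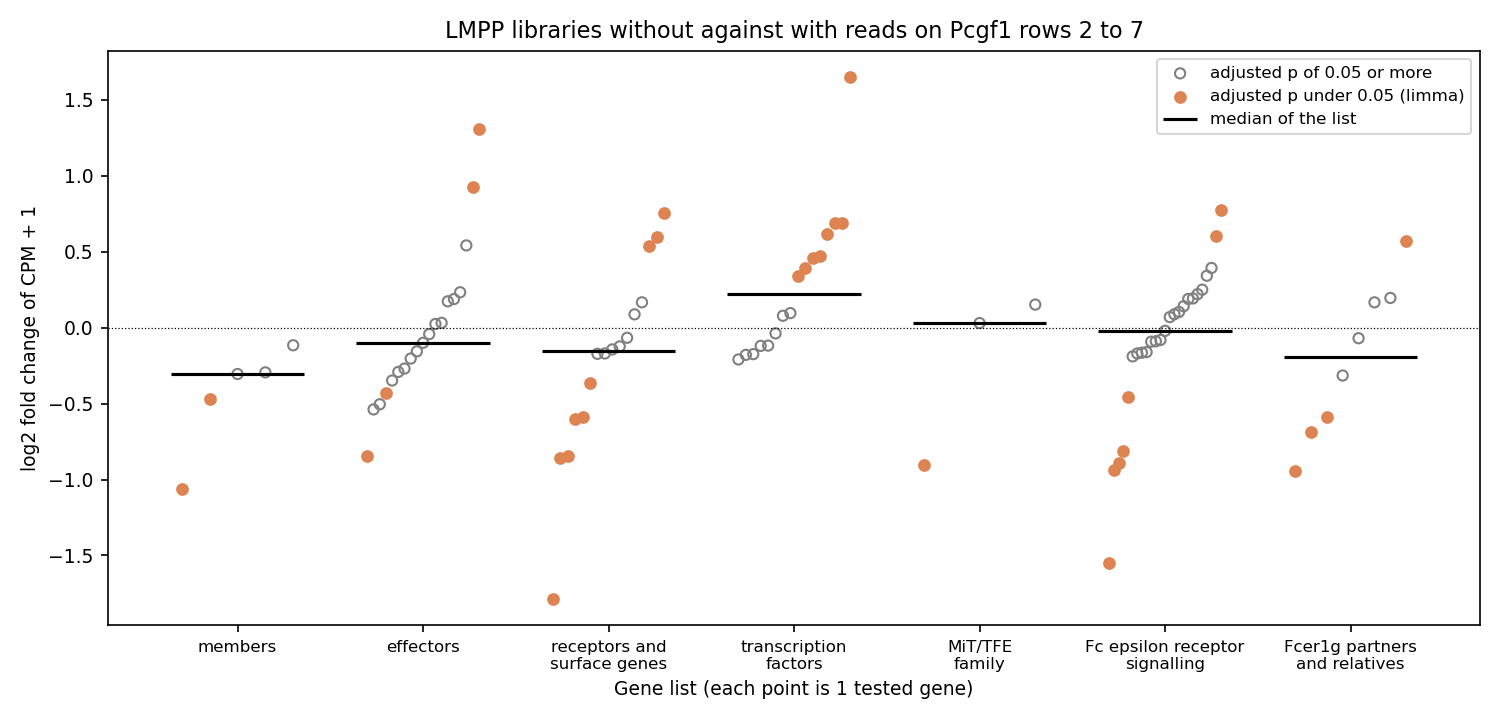
Each point is the log2 fold change of CPM + 1 of 1 tested gene between LMPP libraries without and with reads on *Pcgf1* exons 2 to 7, by list, with filled points for an adjusted p under 0.05 and a bar for the list's median. In the list of mast cell and basophil transcription factors all called genes lie above 0, and called effectors and receptors lie on both sides.

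Markers of other cells differed between the same LMPP libraries, where 7.08% of all genes were called lower and 10.1% higher. Monocyte and macrophage markers summed to 618 to 648 CPM without *Pcgf1* exon reads and 955 to 966 CPM with them, and *Csf1r*, *Ly6c2*, *Ccr2* and *Irf8* were called lower, 4 of 5 tested, of which *Ccr2* lost the call without any 1 of the 4 libraries (adjusted p between 0.0887 and 0.188 by limma). Megakaryocyte markers summed to 260 to 292 CPM against 163 to 175 CPM, with all 8 higher and 4 called. Neutrophil markers summed to 2137 to 2206 CPM against 2329 to 2363 CPM, and erythroid markers to 228 to 235 CPM against 312 to 320 CPM. Of these erythroid sums, *Tfrc* alone gave 220 to 230 CPM against 309 to 316 CPM and was called lower (log2 fold change -0.47). The other 2 of 3 tested erythroid markers were higher, with *Epor* called (1.13). The value of *Epor* ranged from 0.85 to 1.40 when single libraries were left out. The 5 progenitor markers summed to 1518 to 1521 CPM against 1401 to 1437 CPM, with *Kit* called higher and *Ly6a* (log2 fold change -1.83) and *Il7r* (-1.19) called lower. Mast cell markers, mostly *Kit*, summed to 407 to 445 CPM without *Pcgf1* exon reads and 249 to 281 CPM with them. The 3 tested (*Kit*, *Slc18a2* and *Cma1*) were called higher, and the call of *Cma1* is no support. Basophil markers summed to 282 to 315 CPM against 279 to 284 CPM, with 0 called higher and 1 lower of 3 tested. The part of any of these cell types in the values of *Hdc* and *Fcer1g* was not tested.

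*Fcer1g* was the only member tested in both cell types. After each table was centred on its own mean, *Tmed9* followed it most closely over the 8 libraries (Pearson's r = 0.998), and then *1810020D17Rik* and *Tchp* (r = 0.990 each), as the highest of 11247 genes. This ranking is a description, and the value of *Pcgf1*-KO 2 in IdHPCs enters it. Whether the change of *Fcer1g* differed between IdHPCs and LMPPs was not tested, because the tables were normalized apart. None of the 8 members is in the clusters C1 and C2 that the study defined.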

How the data were processed

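The 8 libraries were RNA-seq of poly(A) RNA, 2 per labelled group. The authors aligned reads to mm9, counted them with Rsubread and deposited CPM made with edgeR. The methods name HISAT2 and the submitters' processing notes TopHat2 2.0.13. The methods describe counts per gene, but the deposited tables list 284716 exons under 23284 symbols, and the stated filter on low CPM is not applied.

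Exons with the same symbol and the same values as the exon before in all 8 libraries were counted once, and between 26.0% and 27.7% of reads were on such repeats. The rest were summed per symbol. All values were whole multiples of 1 read within 0.01, which recovered the reads. A read that spans exons may have been counted on each, and intervals then are too narrow.

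Within each table, genes that reached 1 CPM in 1 or more of the 4 libraries were tested by limma (version 3.58.1, R 4.3.3), fitted to log2(CPM + 1) with a trend of variance on mean, 2 libraries against 2, and Benjamini-Hochberg adjustment at 0.05 over all genes. Fold changes on this scale understate those of low genes. All tests were tried on simulated counts with known changes. Alternatives were a pseudocount of 0.1, other filters, rescaling by the median ratio, no trend, edgeR (version 4.0.16) and DESeq2 (version 1.42.0) on recovered reads, all exons summed, the replicate number as a term and each library left out. Another alternative, repeats judged within 1 table, was added after the data were seen. The members and all lists were chosen with earlier results of these data known. All 8 members are named. Of the lists, called genes are named, with the proteases and markers at or near 0 singled out after their values were seen. Intervals and floors cover counting error or the spread of 2 libraries only.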

Additional observations from a re-analysis of the deposited data

How the results depend on the processing

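In the LMPP split by *Pcgf1* exon reads, 2 members were called under each of the alternatives run, leave-one-out fits included. With the labelled genotype as a term the count was also 2. By label, 0 members were called under each alternative. In IdHPCs the count was 0 under each alternative, except that leaving out single libraries gave 0 to 1 (1 without *Pcgf1*-KO 1). When single libraries were left out, the log2 fold change of *Fcer1g* in IdHPCs ranged from -0.0022 to 0.87. By label the ranges were -0.31 to 0.23 for *Cpa3*, -0.23 to 0.36 for *Fcer1g*, -0.67 to 0.40 for *Hdc*, -0.11 to 0.24 for *Mcpt8* and -0.45 to 0.26 for *Mitf*, and in the split by exon reads -0.26 to 0.032 for *Mcpt8*. A lone library left in a group is assumed to vary like the others. The cause of these changes was not tested. Replicate numbers were shared by the groups, and same-numbered libraries deviated together with r = 0.147 in IdHPCs and 0.705 in LMPPs, but with 2 pairs they share only a number. With the replicate number as a block, 0 members were called in IdHPCs and 0 by label, and the genes called went from 33 higher and 32 lower to 484 and 185 in IdHPCs and from 0 and 0 to 3 and 0 by label. The split by exon reads allows no block, because it is the replicate number. The number of IdHPC genes called also depended on the tool, with 451 higher and 159 lower by the exactTest, 77 and 47 by the quasi-likelihood test, 341 and 153 by DESeq2, 19 and 25 with all listed exons and 0 and 0 with no filter. It was 234 and 591 without *Pcgf1*-KO 1, 169 and 61 without *Pcgf1*-KO 2, and 0 and 14 without control 2. In the split by exon reads, 939 higher and 547 lower genes were called by DESeq2, 747 and 544 without the library labelled control 2, and 917 and 560 without that labelled *Pcgf1*-KO 2. Depth limited *Ms4a2*, *Fcer1a* and *Prss34* in LMPPs and *Hdc*, *Mcpt8* and *Mitf* in IdHPCs, where few reads make up each value.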
